A study of Mus musculus with 4 samples.

Results

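A set of 10 genes of the microRNA pathway is described here in Met-low and Met-high cells of the mouse melanoma line B16-F10. They were the uridylyltransferase genes Tut4 and Tut7, the let-7 binding protein gene Lin28b, the processing genes Drosha, Dgcr8, Xpo5 and Dicer1, and the Argonaute genes Ago1, Ago2 and Ago3. Their probes were all probes, controls aside, whose accession maps to 1 of these 10 symbols in mouse RefSeq. The arrays held a named probe for 20832 genes, and these 10 had 15 probes among them. A gene was compared between the populations where its brightest probe was well above background, by the scanner software's own flag, on both arrays of at least 1 population. Of the 11958 genes that met this condition, 9 were members, and Ago3 did not meet it. The 10 genes were chosen by their roles and by their Met-high against Met-low differences on these same arrays, which were already known, so those differences are given as a description, without a test.

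B16-F10 is an established pigmented melanoma line of the C57BL/6 mouse. The cells were sorted by flow cytometry into a population with little and a population with much Met, the receptor of hepatocyte growth factor, on the surface. Both populations came from this single line, the labels give neither a drug nor an engineered allele for either, and both were kept in culture for 3 days between the sort and the extraction of RNA. For either population, 2 RNA samples prepared independently were put on mouse arrays of Agilent in a single colour, Cy3. The resulting 4 arrays are called Met-low replicates 1 and 2 and Met-high replicates 1 and 2. The number of arrays limits the precision of every value, and p-values measure only the spread between these samples. All 4 arrays lay on 1 slide and came from 1 scan. The Met-low samples took positions 1 and 2 of the slide and the Met-high samples 3 and 4, and an effect of position cannot be told apart from one of the population.

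A microRNA is cut in the nucleus from a long transcript by the enzyme Drosha and its partner Dgcr8, is carried to the cytoplasm as a hairpin by exportin 5 (Xpo5), and is cut again by Dicer1 before an Argonaute protein takes up the mature strand. The let-7 family, which restrains growth and stem cell genes in many tissues, is controlled at the hairpin. Lin28 proteins bind let-7 precursors, and Lin28a recruits Tut4 or Tut7, which add a tail of uridines that marks the precursor for decay, while in the absence of Lin28 the same enzymes add a single uridine that can favour cleavage by Dicer.

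The let-7 sequences are shown because they are the RNAs on which Lin28b, Tut4 and Tut7 are best known to act. They were taken from RefSeq for the mouse assembly GRCm38.p6. The table held 9 distinct mature sequences from the 5′ arm of the family, and all 9 shared the same seed, bases 2 to 8 counted from the 5′ end, which is in capitals.
let-7a: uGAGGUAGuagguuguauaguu
let-7b: uGAGGUAGuagguugugugguu
let-7c: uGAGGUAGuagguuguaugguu
let-7d: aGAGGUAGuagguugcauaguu
let-7e: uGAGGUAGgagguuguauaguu
let-7f: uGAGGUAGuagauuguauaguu
let-7g: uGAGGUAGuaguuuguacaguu
let-7i: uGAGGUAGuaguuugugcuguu
miR-98: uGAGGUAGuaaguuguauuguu
Of the 1738 mature entries in the table, 13 carried this seed, where a sequence shared by several genes is counted for each gene.

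The zinc knuckles of Lin28 proteins are known to contact the letters GGAG in the loop of let-7 precursors. These letters were looked for on the strand of the hairpin, between the mature arms. A let-7 family hairpin with an arm missing from the table was given its 5′ arm by a match to a family sequence. The letters were present in 9 of 12 let-7 family hairpins. Among all 645 hairpins of the table with both arms placed, 53 had them, which is 8.22%. Mir98, Mirlet7b and Mirlet7c-2 were the let-7 family hairpins without them. Both kinds are shown, with GGAG between the arms in capitals. Mirlet7g lies at chr9:106178840-106178927 on the plus strand, Mirlet7a-1 at chr13:48538179-48538272 on the minus strand and Mirlet7b at chr15:85707319-85707403 on the plus strand.
Mirlet7g: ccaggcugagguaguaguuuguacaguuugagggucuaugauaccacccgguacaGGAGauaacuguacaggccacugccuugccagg
Mirlet7a-1: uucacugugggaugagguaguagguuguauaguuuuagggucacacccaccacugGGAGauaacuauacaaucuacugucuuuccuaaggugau
Mirlet7b: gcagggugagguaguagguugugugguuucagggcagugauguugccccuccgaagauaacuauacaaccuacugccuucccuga
A match of these letters is a description of the sequence and not a binding site measured in these cells. The level of the microRNAs themselves was not analysed here.

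Each signal is given in log2 units from the 75th percentile of the intensities on its array, so that 0 is the level of a spot at that percentile, and a difference is the Met-high mean minus the Met-low mean on that scale. Signals of different probes are not comparable with each other. That percentile of the intensity ranged from 858 to 1331 over the 4 arrays, and no more than 53.6% of the 43020 spots other than controls were well above background on any of them. The median difference over all 11958 genes was 0.10. The transcript of the sorted protein itself, Met (NM_008591), was at -0.26 and -0.89 in Met-low and at 1.03 and -0.43 in Met-high cells. Met-high replicate 2 thus lay between the Met-low arrays and did not show the order of its label. Values without this array are therefore given beside the differences of the members. All 8 melanocyte lineage genes examined were well above background on all 4 arrays, and limma called 0 of them different at an adjusted p under 0.05, with 1, Sox10, at an unadjusted p under 0.05. A fibroblast collagen, Col1a2, did differ, and its values are given with the markers of other cell types at the end.

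Across the 9 members compared, 3 had every Met-low array above every Met-high array (Tut4, Tut7 and Dicer1), 1 had the opposite order without overlap (Lin28b), and in 5 the populations overlapped. Over all genes compared, 22.6% lay apart in the first direction and 35.7% in the second. More than 2-fold, Tut4 was higher in Met-low and Lin28b higher in Met-high cells, where 5.29% and 2.43% of all genes passed the same fold. The mean was higher in Met-low for 4 members and in Met-high for 5, and the median difference of the 9 was 0.03. Since the choice of the members used this comparison, nothing is read from these counts. In bulk RNA of a population, a smaller share of cells with a transcript and less of it per cell cannot be told apart.

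**Figure D1:**
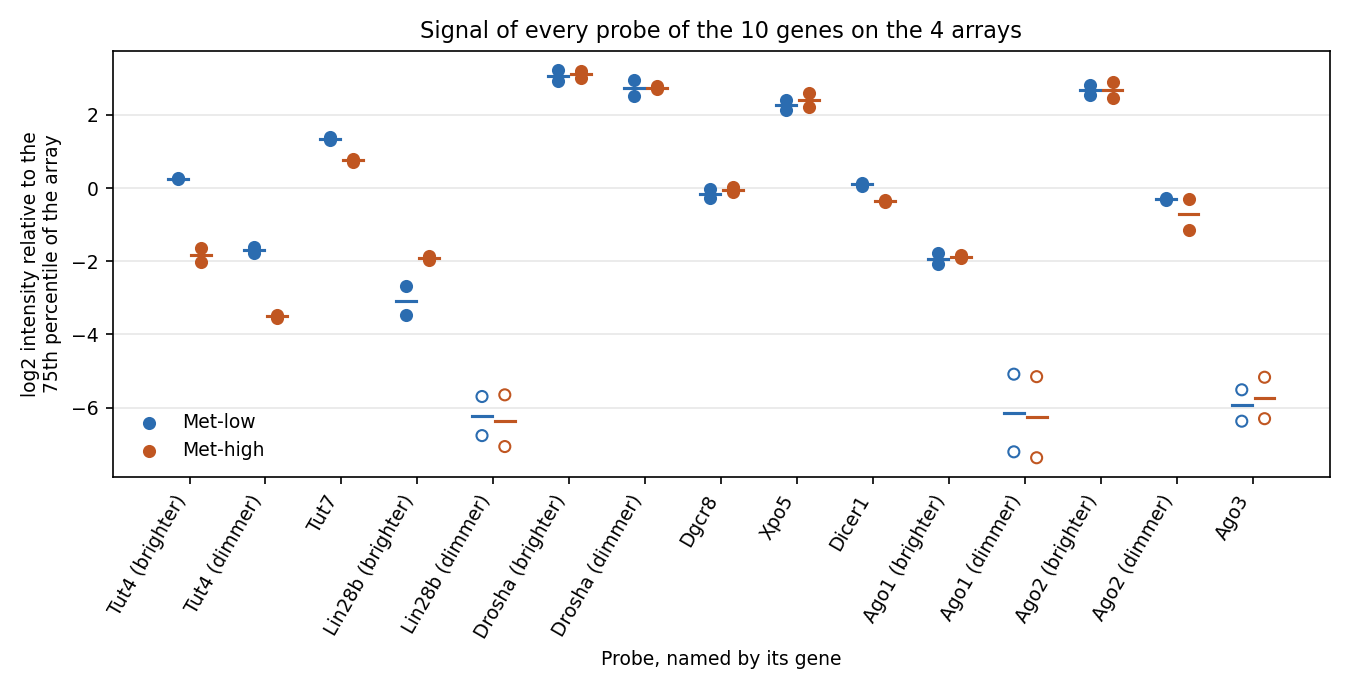
Signal of each of the 15 probes of the 10 genes on the 4 arrays, in log2 units from the 75th percentile of the array, with 1 point per array and a bar at the mean of each population. Open points are probes that stayed near background on all 4 arrays, and heights are not comparable between probes. The populations lie apart in both probes of Tut4, in Tut7, in Dicer1 and in the brighter probe of Lin28b.

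Tut4 (NM_175472, formerly Zcchc11), which adds uridines to let-7 precursors and to the tails of messenger RNAs, had the largest difference among the members. The intensities of its brighter probe were 1135 and 1570 in Met-low against 276 and 274 in Met-high cells. Relative to the array, these were log2 signals of 0.27 and 0.24 in Met-low and of -1.63 and -2.02 in Met-high cells. Both Met-low arrays lay close together, and the Met-high arrays lay well below them. The means were 0.25 ± 0.02 (SD, n = 2) and -1.83 ± 0.27 (SD, n = 2), a difference of -2.08, or 4.23-fold. A second probe, dimmer but also well above background on all 4 arrays, was at -1.60 and -1.77 in Met-low and at -3.55 and -3.46 in Met-high cells. Its difference was -1.82, and its populations did not overlap either. Without Met-high replicate 2 the difference of the brighter probe was -1.89.

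Tut7 (NM_153538, formerly Zcchc6) is the close relative of Tut4 and can act on the same precursors. Its single probe had log2 signals of 1.38 and 1.31 in Met-low and of 0.72 and 0.79 in Met-high cells. The populations were separated by 0.52, with little spread within either. The means were 1.35 ± 0.05 (SD, n = 2) and 0.75 ± 0.05 (SD, n = 2), a difference of -0.59, or 1.51-fold, and of -0.62 without Met-high replicate 2. Tut4 and Tut7 thus both had the higher signal in Met-low cells, with the smaller fold for Tut7.

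Lin28b (NM_001031772), the RNA-binding protein that holds let-7 precursors back from processing, differed the other way. The intensities of its brighter probe were low, at 84.3 and 209 in Met-low against 220 and 304 in Met-high cells, yet well above background on all 4. The log2 signals were -3.48 and -2.67 in Met-low and -1.96 and -1.87 in Met-high cells. The Met-high arrays were close to each other, and the spread lay in Met-low, where replicate 1 was the lowest of the 4. Means of -3.08 ± 0.57 (SD, n = 2) and -1.92 ± 0.07 (SD, n = 2) gave a difference of 1.16, or 2.24-fold, which was 1.11 without Met-high replicate 2. The size depended on Met-low replicate 1, since it was 0.76 without that array and 1.57 without Met-low replicate 2. The second probe of Lin28b was not well above background on any array, with intensities between 8.31 and 25.7, so the difference rests on 1 probe.

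The nuclear step differed little. Drosha (NM_001130149), the ribonuclease that releases the hairpin, was at 3.22 and 2.92 in Met-low and at 3.02 and 3.18 in Met-high cells by its brighter probe. The arrays of the populations interleaved, and the difference of 0.03 was below the SD of 0.21 in Met-low and of 0.12 in Met-high cells. Its second probe, at 2.94 and 2.53 against 2.77 and 2.70, gave a difference of 0.0049. Dgcr8 (NM_033324), the RNA-binding partner of Drosha, was at -0.03 and -0.28 in Met-low and at -0.12 and 0.02 in Met-high cells. Here too the arrays overlapped, with a difference of 0.11 and SDs of 0.18 and 0.10. Xpo5 (NM_028198), the export receptor of the hairpin, was at 2.13 and 2.41 in Met-low and at 2.22 and 2.61 in Met-high cells, a difference of 0.14 with SDs of 0.20 and 0.27. Without Met-high replicate 2 the differences were -0.05 for Drosha, 0.04 for Dgcr8 and -0.05 for Xpo5.

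Dicer1 (NM_148948), which cuts the exported hairpin into the mature duplex, was the only one of the processing genes among the members whose populations lay apart. Its probe was at 0.13 and 0.06 in Met-low and at -0.38 and -0.32 in Met-high cells. Every Met-low value was above every Met-high value, by 0.38 at the nearest. The means were 0.10 ± 0.05 (SD, n = 2) and -0.35 ± 0.05 (SD, n = 2), a difference of -0.45, or 1.36-fold, and of -0.48 without Met-high replicate 2. The fold was smaller than those of Tut4, Tut7 and Lin28b.

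The Argonautes carry the mature strand to its targets, and Ago2 is the member of the family that can itself cut a target. Ago2 (NM_153178) was at 2.82 and 2.54 in Met-low and at 2.89 and 2.46 in Met-high cells by its brighter probe. Its means were 2.68 in both populations, with SDs of 0.19 and 0.30. The dimmer probe of Ago2 was at -0.26 and -0.34 in Met-low and at -0.29 and -1.14 in Met-high cells, so that its difference of -0.42 came from Met-high replicate 2, and its populations overlapped by 0.05. Without Met-high replicate 2 the brighter probe gave a difference of 0.21. Ago1 (NM_153403) was at -1.78 and -2.08 in Met-low and at -1.92 and -1.84 in Met-high cells, a difference of 0.05 with SDs of 0.21 and 0.06, and of 0.0064 without Met-high replicate 2. A second probe of Ago1 and the single probe of Ago3 (NM_153402) were well above background on none of the arrays. The intensities of the Ago3 probe were 20.6 and 16.1 on the Met-low and 10.9 and 30.9 on the Met-high arrays, which gives no usable difference. Ago3, Ago1 and Ago4 are neighbouring coding genes on chromosome 4 of the mouse.

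**Figure D2:**
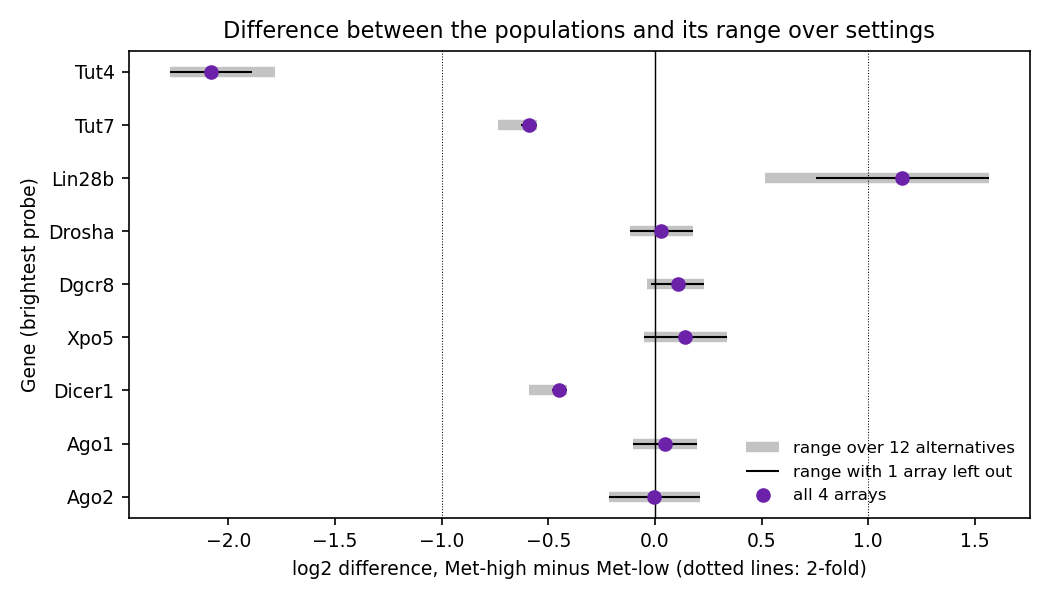
Difference of the brightest probe of each of the 9 members compared, Met-high minus Met-low on the log2 scale, with all 4 arrays (points), with each array left out in turn (thin lines) and over the 12 alternatives computed for these differences (grey bars). Tut4, Tut7 and Dicer1 stay below 0 and Lin28b stays above 0 in every setting shown, while the ranges of the other members include 0.

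The plot of the members' differences shows how far each value moved with the processing. Over the 12 alternatives computed for these differences, Tut4 lay between -2.27 and -1.78, Tut7 between -0.74 and -0.55, Dicer1 between -0.59 and -0.41 and Lin28b between 0.52 and 1.57. The lower end for Lin28b was the mean of its probes, the dim one included, in which its arrays overlapped. Each of the other 5 members had settings on both sides of 0.

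**Figure D3:**
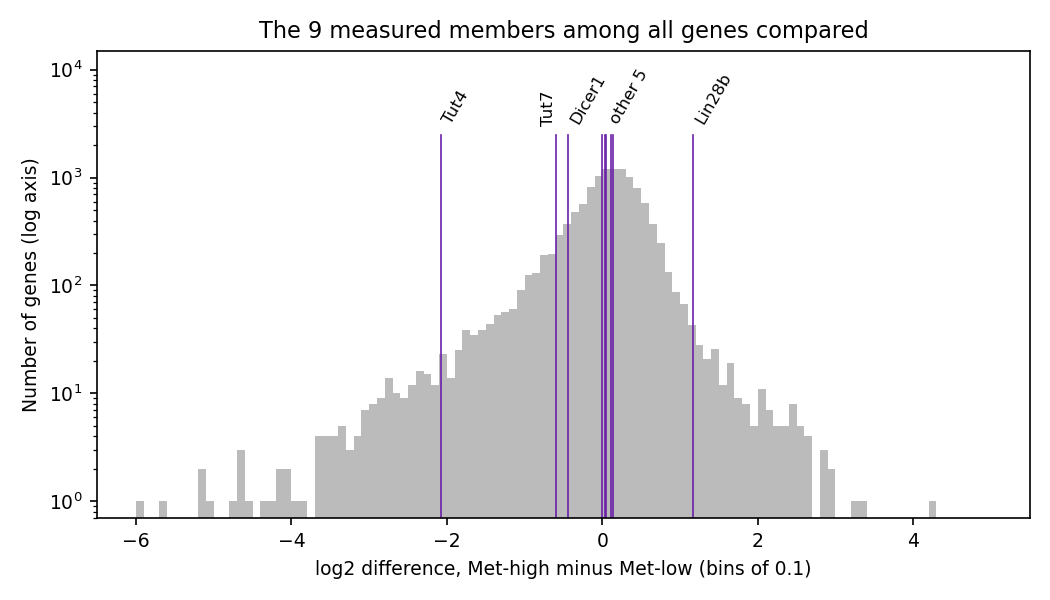
Number of genes, on a log axis, by the difference Met-high minus Met-low in bins of 0.1 on the log2 scale, over the 11958 genes compared. Vertical lines mark the 9 members, of which Tut4 at -2.08 and Lin28b at 1.16 lie in the tails and 5 lie near the median of 0.10.

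Genes whose pattern over the 4 arrays was most like that of Tut4 or Lin28b, after the mean of each gene was subtracted, were found by the root mean square distance on the log2 scale. Nearest to Tut4 were Pdgfa, a chain of platelet-derived growth factor, at a distance of 0.09, Ppp3ca, the catalytic subunit of calcineurin, at 0.09, and Slc18a1, a vesicular monoamine transporter, at 0.10. Their differences were -2.14, -1.94 and -2.28, and Slc18a1 was not well above background on any Met-high array. Nearest to Lin28b were Raet1e, a ligand of an activating receptor of natural killer cells, at 0.05, Vmn1r132, a vomeronasal receptor gene, at 0.07, and Lamc3, a laminin chain, at 0.09. Their differences were 1.08, 1.17 and 1.20. Vmn1r132 and Lamc3 were well above background on 1 of 2 Met-low arrays, and Raet1e on all 4.

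A list of 39 other genes of the pathway was compared with limma, with p-values adjusted by Benjamini-Hochberg over all genes compared. Of these, 37 passed the filter on dim probes, and at an adjusted p under 0.05 there were 0 genes higher in Met-low and 0 higher in Met-high, where 3.82% and 1.95% of all genes were called. At an unadjusted p under 0.05 in limma there were 1 and 4, against 11.9% and 14.3% of all genes, and the methods' t-test, which they name for comparisons of a pair of groups in general and not for the arrays, also gave 1 and 4 before and 0 and 0 after adjustment. The mean favoured Met-low in 14 and Met-high in 23 genes, where it did so in 4839 and 7119 of all genes compared, and the median difference of 0.09 was close to the 0.10 of all genes. A p that misses the threshold, with 2 arrays a population, does not show that a gene did not differ.

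The list holds 8 genes of nuclear processing, and all 8 passed the filter, with 7 higher in the mean of Met-high cells and a median difference of 0.21, beside the lean to Met-high of all genes given above. Khsrp, a protein that binds let-7 precursors and favours their processing, was at 3.90 and 3.90 in Met-low and at 4.37 and 4.54 in Met-high cells. Its difference of 0.56 (standard error 0.16) did not pass in limma (adjusted p = 0.112), and its second probe gave 0.27. Hnrnpa1, an RNA-binding protein known to compete with Khsrp for a let-7 precursor, had a difference of 0.38 (adjusted p = 0.216 in limma). In both genes the Met-high arrays lay above the Met-low arrays, as in 6 of the 8 genes of this group and 35.7% of all genes compared. Among 4 genes of loading past the filter, Tarbp2, a double-stranded RNA-binding partner of Dicer, was at 3.77 and 4.10 against 4.39 and 4.58, a difference of 0.54 (standard error 0.19, adjusted p = 0.159 in limma). Tsn, a subunit of the nuclease that clears the passenger strand, differed by 0.24 (adjusted p = 0.403 in limma). Ago4, the fifth gene of this group, did not pass the filter.

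Of 15 genes of silencing, the mean was higher in Met-low for 9 and in Met-high for 6, and the median difference was -0.12. The extremes were Tnrc6b, a scaffold that links Argonautes to the deadenylases, and Mov10, an RNA helicase of the silencing complex. Tnrc6b was at -1.72 and -1.88 in Met-low and at -2.41 and -2.73 in Met-high cells, a difference of -0.77 (standard error 0.19, adjusted p = 0.0795 in limma). Mov10 was at 0.21 and 0.17 in Met-low and at 0.91 and 1.01 in Met-high cells, a difference of 0.77 (standard error 0.15, adjusted p = 0.0558 in limma). Their populations did not overlap. Over the alternatives without pairing, the adjusted p lay between 0.0697 and 0.290 for Tnrc6b and between 0.0361 and 0.235 for Mov10, which passed the threshold with normexp (0.0456), with the filter on all arrays (0.0499) and with a trend in eBayes (0.0361). The paralogues of Tnrc6b, looked up after its value was seen, had differences of -0.41 for Tnrc6a and -0.59 for Tnrc6c, with adjusted p of 0.225 and 0.345 in limma. The populations lay apart for Tnrc6a and overlapped for Tnrc6c.

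Of 11 genes of uridylation and decay, 10 passed the filter. The mean of 2 was higher in Met-low and that of 8 in Met-high, beside the lean to Met-high of all genes given above. The median difference was 0.13. The largest differences were 0.39 for Eri1, an exonuclease that trims small RNAs, and 0.34 for Pnpt1, a polynucleotide phosphorylase of mitochondria, with adjusted p of 0.225 and 0.360 in limma. Lin28a, the paralogue of Lin28b, and Dis3l2, the exonuclease that degrades uridylated let-7 precursors, were looked up for their roles after the values were seen. Lin28a was at -1.83 and -1.84 in Met-low and at -1.75 and -1.65 in Met-high cells, a difference of 0.13 (adjusted p = 0.626 in limma). Dis3l2 was at 2.40 and 2.32 in Met-low and at 2.55 and 2.69 in Met-high cells, a difference of 0.26 (adjusted p = 0.358 in limma). Tut1, another uridylyltransferase gene and also looked up after its value was seen, differed by 0.21 (adjusted p = 0.445 in limma). Eri1, Pnpt1, Lin28a, Dis3l2 and Tut1 were the 5 of 10 genes whose Met-high arrays lay above the Met-low arrays. In Parn the Met-low arrays lay above, and in the rest the populations overlapped. Over all genes compared, 35.7% lay apart with Met-high above and 22.6% with Met-low above.

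**Figure D4:**
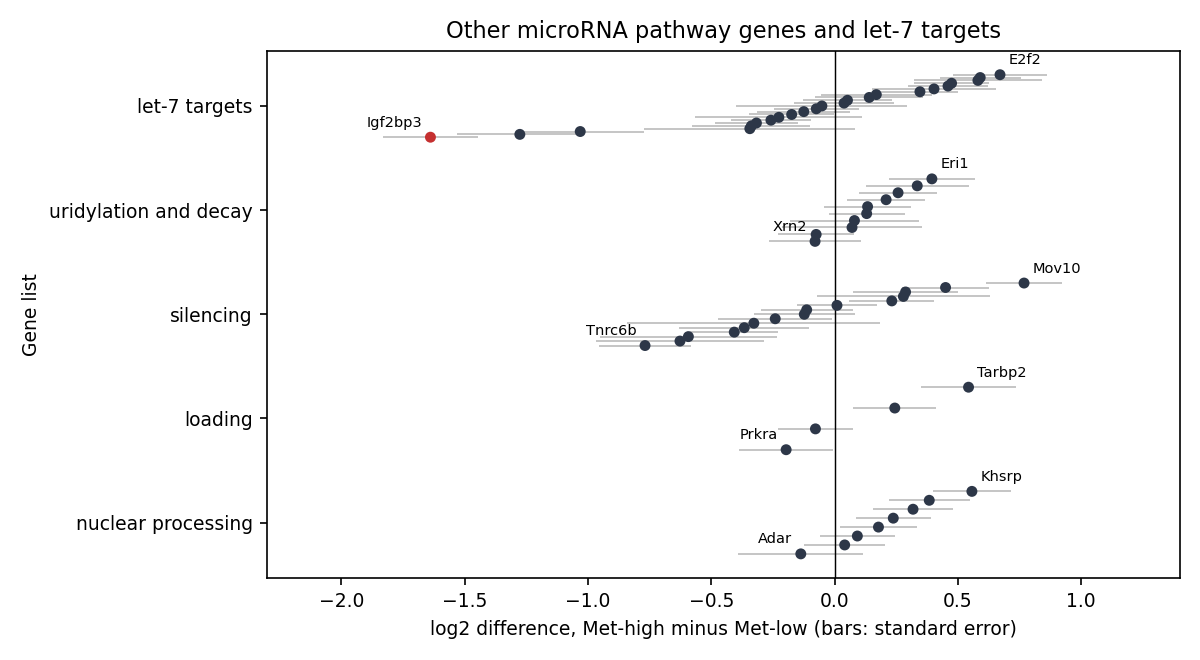
Difference of each gene of the other microRNA pathway lists and of the let-7 targets that passed the filter, Met-high minus Met-low on the log2 scale, with bars of 1 standard error. The gene with the lowest and the gene with the highest difference of each list are named, and the red point, Igf2bp3, is the gene at an adjusted p under 0.05 in limma.

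A list of 26 genes widely known as let-7 targets was compared in the same way, and 23 passed the filter. Of these, 1 (Igf2bp3) was called lower in Met-high cells and 0 were called higher, against 3.82% and 1.95% of all genes. At an unadjusted p under 0.05 in limma there were 3 higher in Met-low and 4 higher in Met-high cells, against 11.9% and 14.3% of all genes. Means were higher in Met-low for 12 genes and in Met-high for 11, where the same counts over all genes were 4839 and 7119. The differences of the list had a median of -0.05, against 0.10 over all genes, and ranged from -1.64 to 0.67.

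Igf2bp3 (NM_023670) encodes an RNA-binding protein of growth and fetal tissues. It was at -1.95 and -1.78 in Met-low and at -3.68 and -3.33 in Met-high cells, and it fell by 1.64 (standard error 0.19, adjusted p = 0.0166 in limma). The difference was -0.98 after a normexp background correction. The adjusted p lay between 0.0112 and 0.214 over the alternatives without pairing, and the call was lost without a filter on dim probes (0.103) and with the methods' t-test (0.214). Ccnd2, the gene of cyclin D2, was at 5.74 and 5.28 in Met-low and at 4.48 and 3.99 in Met-high cells, a difference of -1.28 (standard error 0.26). Its populations lay apart, and it did not pass in limma (adjusted p = 0.0558). Among the same alternatives its adjusted p ran from 0.0251 to 0.290, and was under the threshold without Met-low replicate 2 (0.0434) or Met-high replicate 1 (0.0256), with normexp (0.0333), with the filter on all arrays (0.0461) and with a trend in eBayes (0.0251). Hmga2, the chromatin protein most often used as a readout of let-7, was looked up after its value was seen and differed by -0.12, with overlap between the populations.

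Markers of other cell types were measured on the same arrays. Of 5 fibroblast genes, 1 was well above background on all 4 arrays and 2 on none. That 1 gene, Col1a2, a chain of type I collagen, had a mean of -0.85 in Met-low and of -1.95 in Met-high cells, a fall of 2.14-fold (adjusted p = 0.0311 in limma). The log2 of the summed fibroblast signal, most of it from Col1a2, lay between -0.70 and -0.58 in Met-low cells. In Met-high cells it lay between -1.72 and -1.55, so this sum moved in the direction of Tut4, Tut7 and Dicer1. Its part in the differences of the members was not tested. Such a sum adds signals of different probes, some of them near background, and is no measure of the share of a cell type. For 5 leukocyte genes the same sum ranged from 1.87 to 2.14 in Met-low and from 1.64 to 1.97 in Met-high. For 5 keratinocyte genes it ranged from -3.02 to -2.19 and from -3.14 to -2.89, and for 5 genes of endothelium from 2.46 to 2.66 and from 2.75 to 3.08, in the same order of the populations. Of these lists, 2, 0 and 1 genes were well above background on all arrays and 2, 2 and 3 on none, among the last Ptprc of leukocytes, Epcam of keratinocytes and Cdh5 of endothelium. The leukocyte sum came mostly from Itgam and Cd3e, which moved opposite ways. Itgam was at 0.95 and 1.54 in Met-low and at 0.45 and 0.75 in Met-high cells, without overlap. Cd3e was at 0.75 and 0.32 in Met-low and at 1.33 and 0.48 in Met-high cells, with overlap. Itgam moved in the direction of Tut4, Tut7 and Dicer1, and its part was not tested. The endothelium sum came mostly from Kdr, at 2.65 and 2.43 in Met-low and at 3.07 and 2.73 in Met-high cells. It moved in the direction of Lin28b, and its part was not tested either. For the 8 melanocyte genes the sum lay between 10.4 and 10.7 in Met-low and between 10.6 and 10.7 in Met-high cells.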

How the data were processed

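The authors deposited the Feature Extraction output of the 4 arrays, with a background-corrected Cy3 intensity per spot on a linear scale, and a table of log2 values. The software version is 11.0.1.1 by the file headers and 10.7.3.1 by the submitters' processing notes. The deposited log2 values matched log2 of the scanner intensity over the array's 75th percentile, after centring each probe on its median, with slopes of 0.999 to 1.001 between them. Of 39297 probes, 93.5% on Met-low replicate 2 and 100% on each of the other arrays were within 0.01 on the log2 scale.

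From the scanner output, 207 to 232 outlier spots per array were left out, spots of a probe were averaged, and 0 spots were saturated. Of 39429 probes, 27427 matched a symbol by accession in RefSeq (GRCm38.p6). Each gene was represented by its brightest probe. Genes past the filter on dim probes were fitted, 2 arrays against 2, in limma 3.58.1 (lmFit, eBayes) under R 4.3.3, with two-sided p-values and Benjamini-Hochberg adjustment over the 11958 genes. The fit was tested on simulated data. Alternatives were normexp (offset 50), quantile normalization, the percentile over detected probes, no or a stricter filter, outlier spots kept, other uses of probes, the authors' values, each array left out, a replicate block, a trend in eBayes and the methods' t-test.

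The members and lists were chosen with earlier results of these data known. Named from the lists were genes at an adjusted p under 0.05 and the 2 with the largest difference per list, and for Tut4 and Lin28b the 3 genes of nearest profile. Genes looked up beyond this rule are marked where they appear.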

Additional observations from a re-analysis of the deposited data

How the results depend on the processing

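The differences of Tut4, Tut7, Dicer1 and Lin28b kept their direction in the 12 alternatives computed for the brightest probe or the mean of a gene's probes. The dim second probe of Lin28b, taken by itself, differed by -0.13. Members more than 2-fold higher in Met-high numbered 0 with normexp and with the mean of a gene's probes, and 0 to 1 with each array left out (0 without Met-low replicate 1). Members with arrays apart and higher in Met-high numbered 0 with the mean of a gene's probes and 2 to 4 with each array left out, and those higher in Met-low 3 to 5. With each array left out, a lone array more easily lies apart. Among the other pathway genes, normexp, the filter on all arrays and a trend in eBayes each called 1 gene, Mov10, higher in Met-high. Let-7 targets called higher in Met-low numbered 2 in those 3 settings, 0 without a filter or with the adjusted t-test, and 1 to 3 with each array left out.

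Over all genes, those called higher in Met-high numbered 143 with the percentile of detected probes, 0 without a filter, 153 for every probe by itself, 392 with a trend and 106 to 400 with each array left out (the lowest without Met-low replicate 1 and the highest when Met-high replicate 1 was dropped), against 233. Those higher in Met-low numbered 7 without a filter, against 457. The methods' t-test called 0 and 1 after adjustment, and 945 and 1266 before it, with 1 and 4 of the other pathway genes and 4 let-7 targets higher in Met-high. The cause of these shifts was not tested. The percentile of detected probes moved the median of all genes from 0.10 to -0.05.

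The replicate numbers are shared between the populations, and no source says that they pair samples. The differences between replicates 1 and 2 correlated across genes with r = 0.54 over the 2 pairs. With a replicate block, 3 and 3 other pathway genes, 3 and 5 let-7 targets and 1580 and 1976 of all genes were called higher in Met-low and in Met-high. The adjusted p in limma with this block was 0.0164 for Tnrc6b, 0.0161 for Mov10, 0.0292 for Khsrp, 0.0297 for Tarbp2 and 0.00609 for Ccnd2. It was 0.0803 for Hnrnpa1, 0.145 for Tsn, 0.0553 for Eri1 and 0.0732 for Pnpt1. Whether the first of these genes pass thus depends on whether the numbers pair samples. The number of arrays, 2 per population, limits every value.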

Other observations

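The transcripts in which let-7 hairpins lie were looked up after the data were seen. By RefSeq, 7 of 12 let-7 family hairpins lie inside a host gene on the same strand, and 3 lie in a host with a probe past the filter. Huwe1, a ubiquitin ligase gene that holds Mir98 and Mirlet7f-2, was at 2.14 and 1.58 in Met-low and at 1.85 and 1.71 in Met-high cells, a difference of -0.08 (adjusted p = 0.851 in limma) with overlap between the populations. Wdr82, a subunit of a histone methyltransferase complex whose gene holds Mirlet7g, was at 0.97 and 0.79 in Met-low and at 1.27 and 0.96 in Met-high cells, a difference of 0.24 (adjusted p = 0.456 in limma). Its Met-high arrays overlapped the Met-low arrays by a narrow margin. The probe of Mir100hg, the host of Mirlet7a-2, was not well above background on any array, and that of Spaca6, the host of Mirlet7e, only on 1 Met-low array. A host transcript is not a measure of the mature microRNA.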
